A study of Mus musculus with 7 samples.

Results

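A list of 10 chemokine ligand genes, of 27179 genes in the deposited files, was followed across 3 populations of sorted mouse CD8 dendritic cells: Ccl3, Ccl4, Ccl5, Ccl6, Ccl9, Ccl17, Ccl22, Cxcl9, Cxcl10 and Cxcl16. The genes were matched from their Entrez identifiers to mouse symbols, and all 10 were found. The study measured RNA of CD8 dendritic cells from C57BL/6 mice, sorted by flow cytometry on the surface level of CD103, in work on dendritic cells paralysed by systemic inflammation. Untreated mice gave the CD103 negative group (n = 3) and the CD103 low group (n = 2), and mice labelled as treated with CpG, a DNA motif that engages Toll-like receptor 9, gave the CpG CD103 high group (n = 2). The treatment and the high CD103 level occur together, and their effects cannot be told apart. Age, sex, tissue, CpG dose and time of sampling were not found among the labels. Samples of a group are biological replicates according to the study's own description.

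The labels give 2 dates, without saying what was done on them. Those dated 2012 are CD103 negative replicates 1 and 2 and the pair of CpG CD103 high libraries. Those dated 2013 are the CD103 low libraries and CD103 negative replicate 3. Each library held between 4474211 and 4629181 counts, so that 3 counts, the most that an observed 0 allows, stood for 0.648 to 0.671 CPM (counts scaled to library size). All 8 defining markers of the CD8 lineage on the list used here (among them Xcr1, Clec9a, Tlr3 and Cd8a) were well expressed, with a summed level of 11147 CPM or more in every library. T cell markers summed to 37.9 CPM in CD103 low replicate 2 and to 3.86 CPM or less in the other libraries. CD103 negative replicate 3 stood apart by markers of cDC2 cells (a sum of 67.3 CPM against 35.6 or less), and CD103 negative replicate 1 by immediate early and heat-shock genes (18508 CPM against 10490 or less). The samples are bulk populations, in which fewer cells making a transcript and less of it per cell cannot be told apart.

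Chemokines are small secreted proteins that steer leukocytes along gradients by engaging receptors of the G protein-coupled class, and they are grouped as CC or CXC by the spacing of their first cysteines. Dendritic cells use them to bring T cells, NK cells and monocytes to the place where antigen is presented. Ccl3, Ccl4 and Ccl5 are inflammatory chemokines that attract monocytes, NK cells and effector T cells, Ccl17 and Ccl22 are ligands of Ccr4 on regulatory and helper T cells, and Ccl6 and Ccl9 are rodent CC chemokines that act on Ccr1. Cxcl9 and Cxcl10 are induced by interferons and attract Cxcr3-bearing effector T and NK cells, and Cxcl16 is a transmembrane chemokine that binds Cxcr6.

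The genes lie in clusters, and a stretch of sequence upstream of 3 of them is shown because neighbouring and jointly listed genes differed in these data. On mm10 chromosome 5, Cxcl9 (Entrez 17329, 92321331 to 92328079) and Cxcl10 (Entrez 15945, 92346638 to 92348889) lie 18.6 kb apart on the minus strand, and both are interferon-inducible genes whose level did not pass the test between any groups. Ccl6 (Entrez 20305, chromosome 11, 83587886 to 83593087) is a gene of the CC cluster that was lower in CpG CD103 high cells. The 250 bases before each start site (RefSeq, GRCm38.p6, minus strand) read 5′ to 3′, with matches to the motifs searched in capitals, as follows.
Cxcl10, chr5:92348890-92349139: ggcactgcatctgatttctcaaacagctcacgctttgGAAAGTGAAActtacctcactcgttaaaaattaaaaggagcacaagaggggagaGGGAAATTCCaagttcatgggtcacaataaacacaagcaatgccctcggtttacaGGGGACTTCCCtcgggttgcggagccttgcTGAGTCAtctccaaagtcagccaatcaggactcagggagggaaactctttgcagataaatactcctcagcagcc
Cxcl9, chr5:92328080-92328329: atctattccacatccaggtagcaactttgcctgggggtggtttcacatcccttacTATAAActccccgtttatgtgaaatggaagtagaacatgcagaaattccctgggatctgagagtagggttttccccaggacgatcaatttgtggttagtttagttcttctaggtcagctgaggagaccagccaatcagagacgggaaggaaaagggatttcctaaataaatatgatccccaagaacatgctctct
Ccl6, chr11:83593088-83593337: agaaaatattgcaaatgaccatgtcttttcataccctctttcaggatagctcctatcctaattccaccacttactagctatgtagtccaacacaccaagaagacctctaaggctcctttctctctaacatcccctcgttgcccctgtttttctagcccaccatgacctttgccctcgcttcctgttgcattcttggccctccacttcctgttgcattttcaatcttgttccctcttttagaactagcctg
The motifs searched on both strands were the interferon-stimulated response element core (GAAA, any 2 bases, GAAA), the STAT site TTCNNNGAA, the AP-1 site TGANTCA and the NF-kB consensus, and TATAAA was searched as written. Among 32851 upstream windows of 250 bases in the RefSeq table, 2.98% held the response element core, 7.02% the STAT site, 6.75% the AP-1 site, 7.25% the NF-kB consensus and 7.59% TATAAA. Cxcl10 held 1 response element core at 213 to 204 bases before the start, 1 AP-1 site at 74 to 68 bases and 3 matches to the NF-kB consensus, of which the pair nearest the start overlap each other. The Cxcl9 window held only TATAAA, and that of Ccl6 held none of these letters. Of the windows not shown, that of Ccl9 held an NF-kB match, an AP-1 site and TATAAA. The Ccl17 window held a STAT site, and those of Ccl3 and Ccl22 held no match. Whether these letters go with the level of a gene was not tested. Windows were found for 7 of the 10 genes, and a match is a run of letters, not a shown binding site.

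Per length, Cxcl9 had the highest level of the 10 genes in every group. Its mean level in CPM per kilobase, with the SD over the libraries of each group, was 278 ± 29.4 (n = 3) in the CD103 negative group, 241 ± 17 (n = 2) in the CD103 low group and 383 ± 105 (n = 2) in the CpG CD103 high group. Ccl5 came second in CD103 negative and CD103 low cells, at 231 ± 12.1 and 117 ± 6.57 CPM per kilobase. In CpG CD103 high cells it stood at 46.1 ± 3.23, behind Cxcl16 at 64.2 ± 4.07. In CD103 negative cells the ranges over libraries of Cxcl16 and Ccl22 overlapped, and those of Ccl6, Ccl4, Ccl3 and Cxcl10 overlapped from neighbour to neighbour. In CD103 low cells the ranges of the 8 highest genes did not overlap between neighbours. In CpG CD103 high cells those of Ccl22, Cxcl10, Ccl4 and Ccl6 did overlap. Ccl9 and Ccl17 were at the bottom of the order in all 3 groups.

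**Figure D1:**
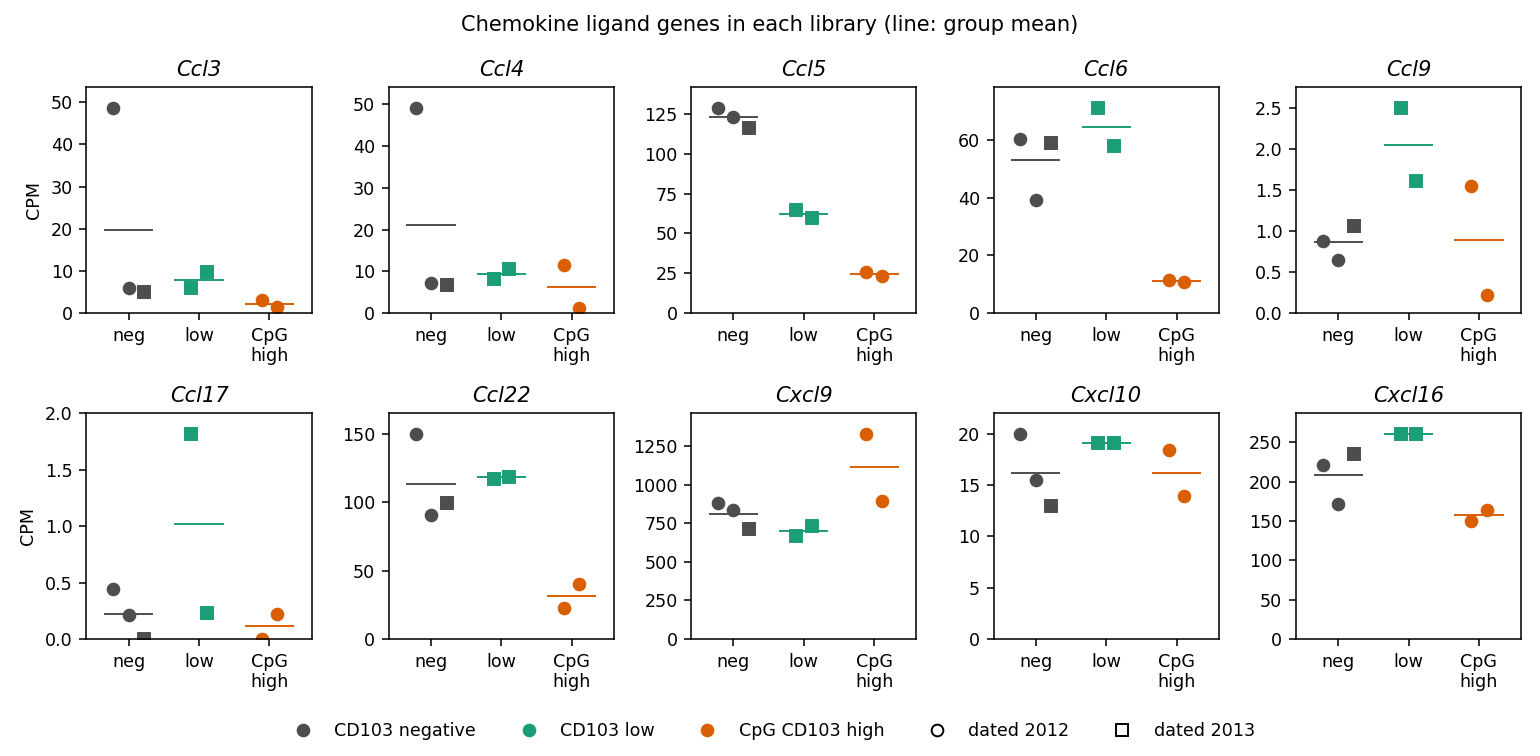
CPM of each of the 10 chemokine ligand genes (vertical axis, from 0, own scale per gene) in the 7 libraries, grouped as CD103 negative (neg), CD103 low (low) and CpG CD103 high, with the group mean as a line and the date as circle or square. Ccl5, Ccl6 and Ccl22 are lowest in both CpG CD103 high libraries, while Ccl3 and Ccl4 are high in CD103 negative replicate 1 alone.

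The make-up of the chemokine transcripts differed between the groups. Over all 38 chemokine ligand genes on the lists used here, Cxcl9 made up 68.6% and 65.1% of the summed CPM per kilobase in CpG CD103 high replicates 1 and 2, and 32.3% to 40.7% in the 5 untreated libraries. The CC genes Ccl3, Ccl4, Ccl5, Ccl6 and Ccl22 together made up 13.5% and 16.2% in CpG CD103 high cells. They made up 53.8%, 46.4% and 47.8% in CD103 negative replicates 1 to 3, and 41.3% and 38.9% in CD103 low replicates 1 and 2. CpG CD103 high cells did not overlap with the untreated libraries in either share, while the Cxcl9 shares of CD103 low cells lay within the CD103 negative range. No test was made of these shares. The summed level of all 38 ligands was 668 and 474 CPM per kilobase in CpG CD103 high cells, 619 and 633 in CD103 low cells, and 937, 706 and 692 in CD103 negative cells.

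**Figure D2:**
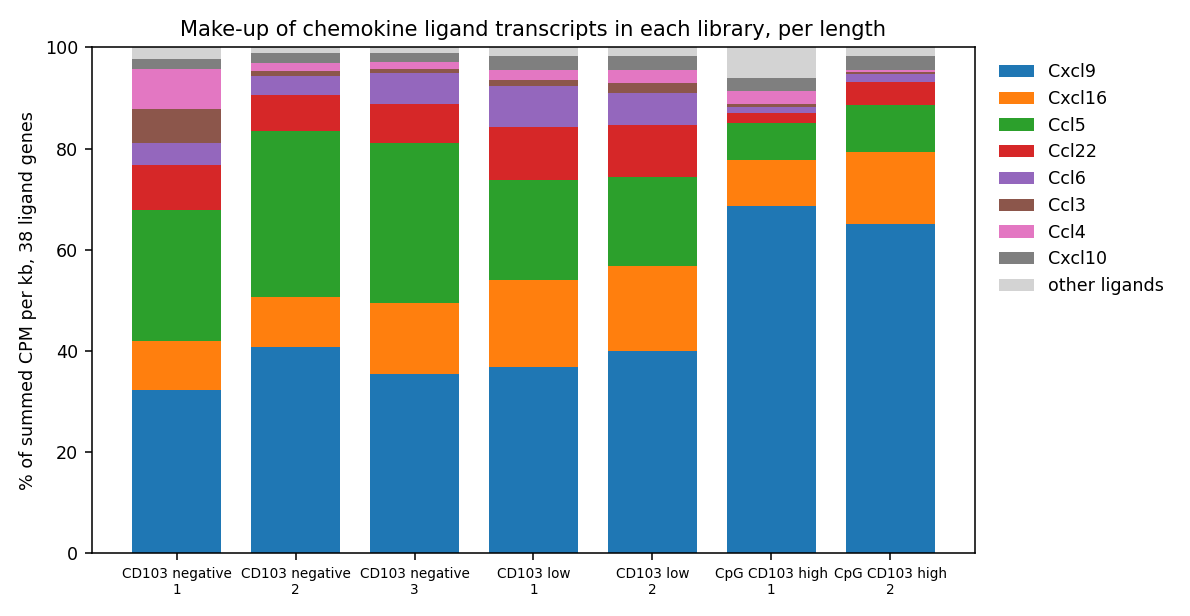
Share of each gene in the summed CPM per kilobase of 38 chemokine ligand genes (vertical axis, percent), 1 bar per library, with the genes outside the 8 coloured ones in light grey. Cxcl9 takes 68.6% and 65.1% in the CpG CD103 high libraries and at most 40.7% in the others, and Ccl5 is the second block of the CD103 negative libraries.

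CpG CD103 high cells held less RNA of 4 CC chemokines than CD103 negative cells: Ccl5, Ccl6, Ccl22 and Ccl3. None of the 8 genes with enough counts to test was called higher. The comparison asked how chemokine transcripts stood in CD8 dendritic cells after the inflammatory treatment. Counts were tested with edgeR's quasi-likelihood test, with group and date as terms, and a gene was called where its p, adjusted by the Benjamini-Hochberg method over all 10863 genes tested, was under 0.05. In this comparison 11.8% of all genes tested were called lower, 14.5% were called higher and 26.3% were called either way. The median log2 fold change was -2.03 over the 8 genes and -0.01 over all genes tested. Without adjustment, 7 of the 8 genes and 4249 of all genes had a p under 0.05. CPM did not overlap between these groups for 6 of the 8 genes, against 44.7% of all genes tested. For the T cell and NK cell attractant Ccl5 (Entrez 20304, chromosome 11, 83525778 to 83530518), the level was 129, 123 and 116 CPM in CD103 negative replicates 1 to 3, and 25.7 and 23.3 CPM in CpG CD103 high replicates 1 and 2. Every CpG CD103 high library thus lay far below every CD103 negative one. This is a 5.15-fold lower level, with a log2 fold change of -2.36 (SE 0.11, edgeR adjusted p 2.97e-06).

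Ccl6, a chemokine of myeloid cells, stood at 60.4, 39.2 and 59 CPM in CD103 negative replicates 1 to 3 and at 11.5 and 10.8 CPM in CpG CD103 high replicates 1 and 2. The groups did not overlap, and the CpG CD103 high libraries lay close together. Ccl6 was 4.46-fold lower, a log2 fold change of -2.16 (SE 0.23, edgeR adjusted p 0.000225). Ccl22 (Entrez 20299, chromosome 8, 94745684 to 94751388), which draws Ccr4-bearing T cells to dendritic cells, stood at 150, 90.8 and 99 CPM in CD103 negative replicates 1 to 3. In CpG CD103 high replicates 1 and 2 it stood at 22.9 and 40.3 CPM, below all 3 CD103 negative libraries. Ccl22 was 3.81-fold lower, a log2 fold change of -1.93 (SE 0.26, edgeR adjusted p 0.000775). With the date term these fold changes rest on CD103 negative replicates 1 and 2, so the libraries dated 2012 alone (2 against 2) give the same fold changes by construction, with adjusted p of 7.89e-05 for Ccl5, 0.00133 for Ccl6 and 0.00437 for Ccl22. Over the 7 fits that left out a library, the log2 fold change of Ccl5 ran from -2.44 to -2.3. That of Ccl6 ran from -2.43 to -1.81, and that of Ccl22 from -2.4 to -1.52. The fits without a CD103 low library or CD103 negative replicate 3 hardly move these values, by construction.

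Ccl3 (Entrez 20302, chromosome 11, 83647843 to 83649378) and Ccl4 (Entrez 20303), the macrophage inflammatory proteins 1 alpha and beta, varied strongly within a group, with an SD above the mean in CD103 negative cells (19.8 ± 25.1 CPM for Ccl3 and 21 ± 24.4 CPM for Ccl4, SD, n = 3). Ccl3 stood at 48.7 CPM in CD103 negative replicate 1 and at 5.82 and 4.9 CPM in replicates 2 and 3, against 3.11 and 1.34 CPM (14 and 6 counts) in CpG CD103 high replicates 1 and 2. The groups did not overlap, but 1 of the 3 control libraries set most of the difference. The log2 fold change was -3.59 (SE 0.92, edgeR adjusted p 0.0176), and without CD103 negative replicate 1 it was -1.37 (SE 0.54) with the call lost (adjusted p 0.123). The call was also lost without CpG CD103 high replicate 2 (-3.13, adjusted p 0.0983), without the date term (-3.13, adjusted p 0.1), with limma voom (-2.96, adjusted p 0.166) and without the filter on low counts (-3.59, adjusted p 0.0551).

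Ccl4 stood at 49.2, 7.11 and 6.6 CPM in CD103 negative replicates 1 to 3, and at 11.5 and 1.12 CPM (52 and 5 counts) in CpG CD103 high replicates 1 and 2. The groups overlapped, since CpG CD103 high replicate 1 lay above 2 of the 3 control libraries. The log2 fold change of -2.14 (SE 0.84) was not called (edgeR adjusted p 0.0865), and it ran from -4.61 without CpG CD103 high replicate 1 to -0.16 without CD103 negative replicate 1. It was called without CpG CD103 high replicate 1 (adjusted p 0.0341) and without CD103 negative replicate 2 (-2.95, adjusted p 0.0109). RefSeq's gene model of Ccl4 overlaps that of Ccl3 by 755 bases, while the GENCODE exons of the pair share 0 bases and the deposited length of Ccl4, 660 bases, equals its GENCODE exon length.

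Other early-response genes were high in the same library as Ccl3 and Ccl4. The summed level of 18 immediate early and heat-shock genes was 18508 CPM in CD103 negative replicate 1, 9904 in replicate 2 and 6682 in replicate 3. It was 6674 and 10490 CPM in CD103 low replicates 1 and 2, and 9852 and 7631 CPM in CpG CD103 high replicates 1 and 2. Within each group the library with the higher sum thus also had the higher Ccl3 and Ccl4. Their part in the result was not tested. Of the 18 genes, 4 were called lower and 1 higher in CpG CD103 high than in CD103 negative cells. Of all genes tested, 11.8% were called lower, 14.5% higher and 26.3% either way in this comparison. The inducible Hsp70 genes Hspa1a and Hspa1b were at -5.40 and -5.29 on the log2 scale (SE 0.51 and 0.48).

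**Figure D3:**
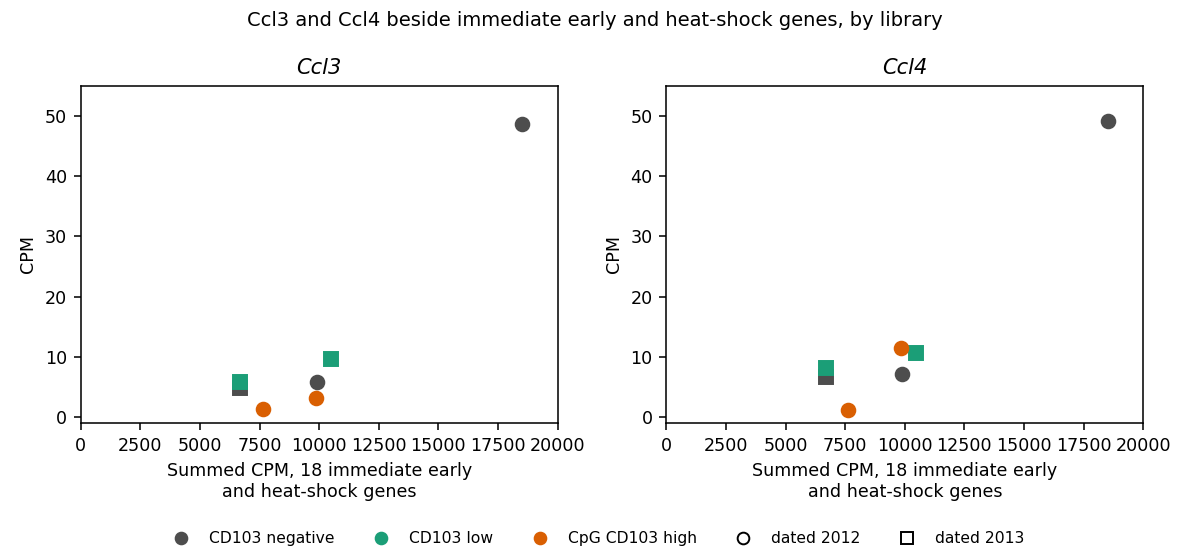
CPM of Ccl3 (left) and Ccl4 (right) on the vertical axis against the summed CPM of 18 immediate early and heat-shock genes on the horizontal axis, 1 point per library, coloured by group and shaped by date. CD103 negative replicate 1, at 18508 CPM on the horizontal axis, stands alone at the top right of both panels, and the other 6 libraries hold at most 9.65 CPM of Ccl3.

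The CXC members did not pass the test in this comparison. Cxcl9 stood at 879, 835 and 714 CPM in CD103 negative replicates 1 to 3 and at 1330 and 897 CPM in CpG CD103 high replicates 1 and 2. Both treated libraries lay above all 3 controls, replicate 2 only narrowly. The log2 fold change of 0.38 (SE 0.15) was not called (edgeR adjusted p 0.0917). It was called without CpG CD103 high replicate 2 (0.63, adjusted p 0.00294), and was 0.07 (adjusted p 0.665) without CpG CD103 high replicate 1. Cxcl10, at 20, 15.5 and 13 CPM in CD103 negative cells and 18.4 and 13.9 in CpG CD103 high cells, overlapped between the groups, with a log2 fold change of -0.13 (SE 0.20, adjusted p 0.658). For Cxcl16 (Entrez 66102, chromosome 11, 70454389 to 70459984), CD103 negative replicates 1 to 3 held 221, 171 and 235 CPM, and CpG CD103 high replicates 1 and 2 held 150 and 164 CPM. The ranges did not overlap, by a narrow margin, and the log2 fold change of -0.32 (SE 0.12) was not called (adjusted p 0.0737) but was called without CD103 negative replicate 2 (-0.49, adjusted p 0.0154).

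**Figure D4:**
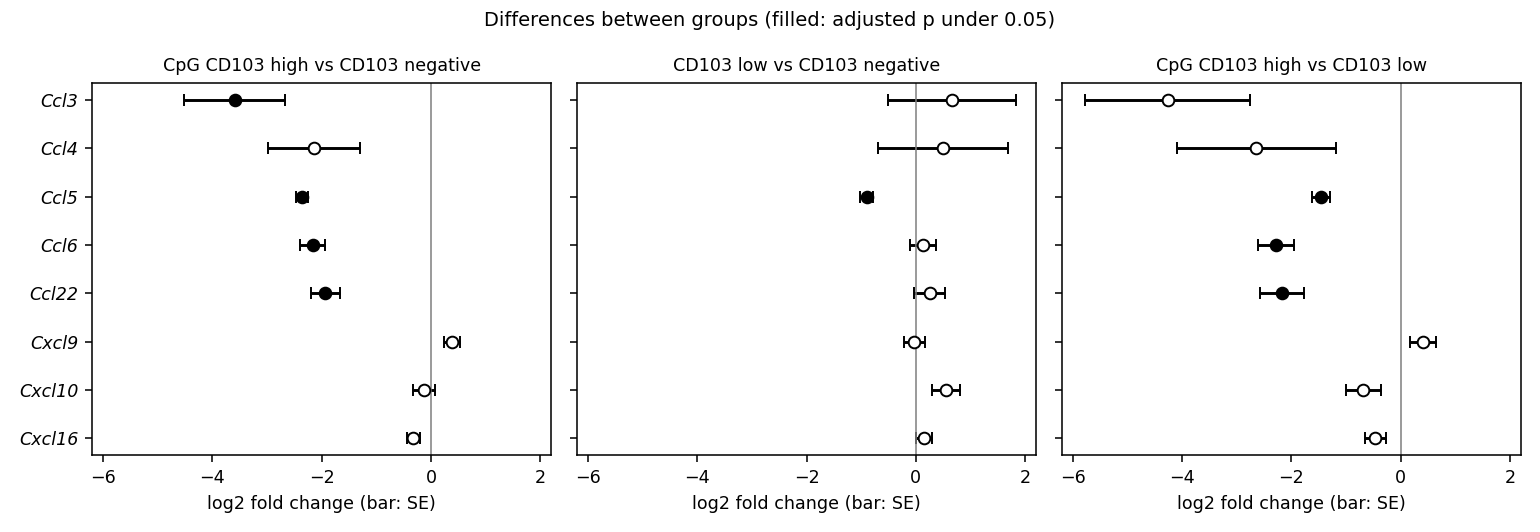
Log2 fold change of the 8 tested genes (horizontal axis) with its standard error as a bar in the 3 comparisons, from the fit with group and date, with called genes filled. Ccl5 is called lower in all 3 panels, at -2.36, -0.90 and -1.46, and the points of Cxcl9, Cxcl10 and Cxcl16 are open throughout.

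In CD103 low cells, which were not treated, 1 member of the list was called against CD103 negative cells. Ccl5 stood at 64.7 and 59.8 CPM in CD103 low replicates 1 and 2, between the CD103 negative and the CpG CD103 high libraries and overlapping neither. Ccl5 was 1.87-fold lower than in CD103 negative cells, a log2 fold change of -0.90 (SE 0.12, edgeR adjusted p 0.0382). In this comparison 0.138% of all genes tested were called, 0.0829% as lower and 0.0552% as higher. T cell markers summed to 37.9 CPM in CD103 low replicate 2 and 3.86 CPM in replicate 1, where Ccl5 was the higher of the pair. NK cell markers summed to 68.1 and 62.1 CPM in CD103 low cells and to 84.9 to 110 CPM in CD103 negative cells, most of it from Klrk1, while 3 of the 8 NK cell markers, Ncr1 among them, held 3 counts or fewer in every library. The part of these cells in the result was not tested.

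With the date term this contrast rests on 1 control library, CD103 negative replicate 3, and with the libraries dated 2013 alone, 2 against 1, the log2 fold change of Ccl5 was -0.92. The single control is there assumed to vary like the CD103 low pair, so this value is no independent support for the call. The fold change ran from -1.05 to -0.85 over the fits that left out a library. The call was kept without CpG CD103 high replicate 1 or 2, which lie outside this contrast. It was also kept without CD103 negative replicate 3, a fit with no date term in which replicates 1 and 2 are the controls. The adjusted p was 0.0565 and 0.0567 without CD103 negative replicate 1 or 2, 0.169 and 0.375 without CD103 low replicate 1 or 2, and 0.132 without the filter on low counts.

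Of the other tested members, none was called between the 2 untreated groups. This does not show that their levels were alike. Ccl6 stood at 71.1 and 57.9 CPM in CD103 low replicates 1 and 2 (log2 fold change 0.13, SE 0.23, adjusted p 0.948), within or above the CD103 negative range. Ccl22 stood at 117 and 118 CPM (0.25, SE 0.29), and Cxcl9 at 664 and 734 CPM (-0.03, SE 0.19). Cxcl16 stood at 261 and 260 CPM, above the highest CD103 negative library at 235, with a log2 fold change of 0.15 (SE 0.14). Cxcl10 was at 19.1 CPM in both CD103 low libraries (0.55, SE 0.25, adjusted p 0.691). Ccl3, at 5.9 and 9.65 CPM, and Ccl4, at 8.17 and 10.6 CPM, lay within the CD103 negative range. Their log2 fold changes of 0.66 (SE 1.17) and 0.50 (SE 1.19) turned to -1.34 and -1.15 without the date term. CPM did not overlap between CD103 low and CD103 negative for 2 of the 8 genes, against 28.3% of all genes tested.

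The contrast of CpG CD103 high with CD103 low cells shares its CpG libraries with the first comparison, and its members are given here by their own values. Ccl5, Ccl6 and Ccl22 were lower in CpG CD103 high cells. The log2 fold change of Ccl5 was -1.46 (SE 0.17, edgeR adjusted p 0.00244). Ccl6 was at -2.29 (SE 0.33, adjusted p 0.00594) and Ccl22 at -2.18 (SE 0.40, adjusted p 0.0151). In this comparison 2.78% of all genes tested were called lower, 3.44% higher and 6.22% either way. The call of Ccl22 was lost without CD103 low replicate 1 or 2 (adjusted p 0.0817 and 0.0778) and without the filter on low counts (0.0563). Cxcl9 (0.41, SE 0.24), Cxcl10 (-0.69, SE 0.32) and Cxcl16 (-0.47, SE 0.19) were not called. Ccl3 (-4.26, SE 1.51, adjusted p 0.122) and Ccl4 (-2.64, SE 1.45, adjusted p 0.308) were not called either. In CpG CD103 high replicates 1 and 2, Ccl3 stood at 3.11 and 1.34 CPM and Ccl4 at 11.5 and 1.12 CPM. In CD103 low replicates 1 and 2, Ccl3 stood at 5.9 and 9.65 CPM and Ccl4 at 8.17 and 10.6 CPM. Their fold changes include the date term, -2.47 (SE 1.02) for Ccl3 and -2.08 (SE 1.06) for Ccl4, set by the CD103 negative libraries. Of these, replicate 1 held the highest level of both genes. Without CD103 negative replicate 2, Ccl3 (-5.10, adjusted p 0.00351) and Cxcl16 (-0.64, adjusted p 0.0471) were called lower. In that fit the date term rests on CD103 negative replicate 3 against replicate 1 alone. Over the 7 fits that left out a library, the log2 fold change of Ccl3 ran from -5.1 to -1.77. That of Ccl4 ran from -5.12 to -0.54. Without CD103 negative replicate 3, Cxcl16 was called lower (-0.71, adjusted p 0.00324) and Cxcl9 higher (0.69, adjusted p 0.0135), and without CpG CD103 high replicate 2 Cxcl9 was called higher (0.66, adjusted p 0.0308). CPM did not overlap for 7 of the 8 genes, against 58.6% of all genes tested. These groups share no date and are tied only through the CD103 negative libraries. Between the dates, within CD103 negative cells, none of the 8 genes was called and 1 had an unadjusted p under 0.05, while 3.46% of all genes tested were called, 2.16% as higher and 1.30% as lower at the later date.

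Ccl9 and Ccl17 had too few counts for the filter. Ccl17 (Entrez 20295, chromosome 8, 94809380 to 94812038) held 2, 1 and 0 counts in CD103 negative replicates 1 to 3 and 0 and 1 count in CpG CD103 high replicates 1 and 2. It was thus below detection, taken as 3 counts or fewer in every library of a group, in both of these groups. In CD103 low cells it held 8 counts in replicate 1 and 1 count in replicate 2. Its neighbour Ccl22 on chromosome 8, 58.8 kb away, held 103 to 683 counts. Ccl9 (Entrez 20308, chromosome 11, 83572917 to 83578636) held 4, 3 and 5 counts in CD103 negative replicates 1 to 3, 11 and 7 in CD103 low replicates 1 and 2, and 7 and 1 in CpG CD103 high replicates 1 and 2. With no filter on low counts neither gene was called in any comparison, and the lowest adjusted p was 0.386, for Ccl17 in CpG CD103 high against CD103 low.

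Within the CC cluster of chromosome 11, neighbouring genes differed in level and in the groups they separated. Ccl9 lies 42.4 kb from Ccl5 and 9.2 kb from Ccl6, and held 11 counts or fewer in every library, while Ccl6 held 48 to 313 counts and Ccl5 held 104 to 589. Ccl5 alone of the tested cluster genes was called in CD103 low cells. Whether the change of Ccl5 differed from that of Ccl6 in these cells was not tested.

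**Figure D5:**
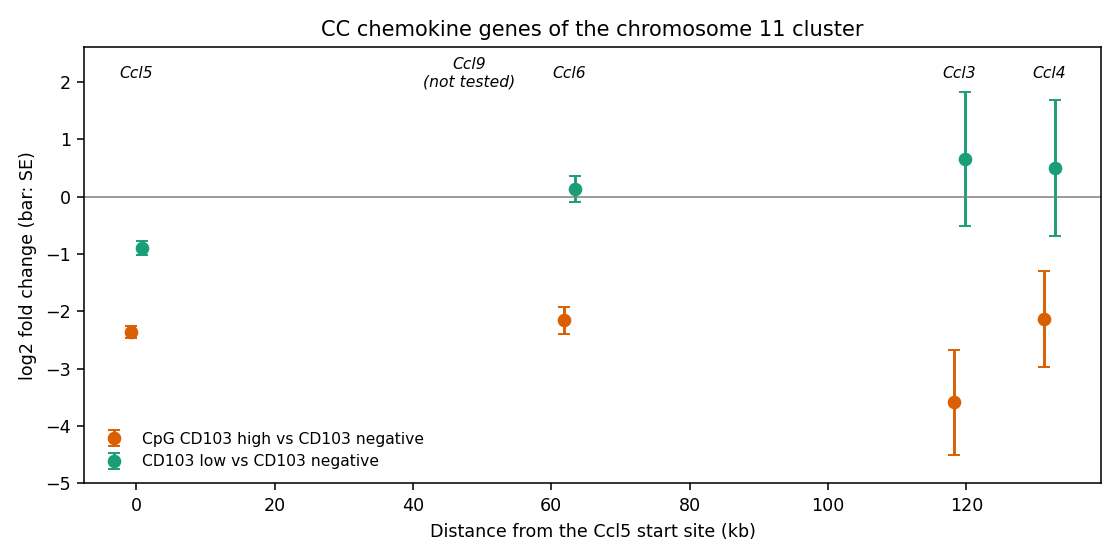
Log2 fold change over CD103 negative (vertical axis, bars are standard errors) of the CC chemokine genes by the distance of their start site from that of Ccl5 (horizontal axis, kb), for CpG CD103 high and CD103 low cells. All 4 tested genes lie below 0 in CpG CD103 high cells, with Ccl4 not called, and in CD103 low cells Ccl5 lies below 0, at -0.90, and is the one gene called.

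The other genes of the chemokine system were mostly at low levels in these cells. Of 28 further chemokine ligand genes, 14 held no count in any library, 19 held 3 counts or fewer in every library, and 2 passed the filter. Ccl2, the monocyte attractant and the more abundant of that pair, held 11, 2.16 and 2.98 CPM in CD103 negative replicates 1 to 3, and 25.7 and 3.36 CPM in CpG CD103 high replicates 1 and 2. The groups overlapped (log2 fold change 1.15, SE 0.79, edgeR adjusted p 0.314), and Ccl2, like Ccl4, was higher in replicate 1 of either group. Among 9 receptors of the listed ligands, 3 passed the filter. Cxcr3, the receptor of Cxcl9 and Cxcl10, held 75.1, 76.7 and 77.5 CPM in CD103 negative replicates 1 to 3, and 137 and 157 CPM in CpG CD103 high replicates 1 and 2. It was called higher, at 0.96 (SE 0.10, adjusted p 0.00025). Of 6 genes for enzymes that cut chemokines, 3 passed the filter and 0 were called. The most abundant was Dpp4, a peptidase that trims the amino terminus of several chemokines, at -0.19 (SE 0.08, adjusted p 0.122).

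Regulators upstream of chemokine genes moved both ways in CpG CD103 high against CD103 negative cells. Of 17 transcription factors and inhibitors listed, 6 rose and 3 fell. Stat2 and Irf1, which carry interferon signals to their target genes, rose by 1.48 (SE 0.21) and 0.87 (SE 0.09) on the log2 scale, and Irf7 rose by 1.03 (SE 0.15). The NF-kB subunit gene Nfkb2 (-0.47, SE 0.09) and the inhibitor gene Nfkbia (-0.79, SE 0.21), itself an NF-kB target, fell, as did Jun (-1.54, SE 0.24). The groups overlapped for Nfkbia, with 229 and 169 CPM in CpG CD103 high replicates 1 and 2. CD103 negative replicates 1 to 3 held 424, 262 and 215 CPM of Nfkbia. Of 16 tested genes of the interferon response 11 were called higher and 0 lower, with a median log2 fold change of 1.14. Those not called all lay below 0. Rsad2 was at -1.01 (SE 0.38), Oas1a at -0.39 and Ifit2 at -0.30, with Usp18 at -0.17 and Isg15 at -0.10. The GTPase genes Iigp1 and Mx1 led by adjusted p, at 3.75 (SE 0.27) and 1.15 (SE 0.11), and Mx1 was also higher at the later date within CD103 negative cells, at 1.15 (SE 0.13, adjusted p 0.00393). Cxcl9 and Cxcl10, also inducible by interferons, stood at 0.38 and -0.13 in the same fit, uncalled. Whether they differed from the interferon list was not tested.

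Markers of mature dendritic cells, of which Ccl22, Ccl17 and Ccl5 are often counted a part, were mostly lower. Of 14 tested maturation genes, none of them a member, 8 fell and 1 rose in CpG CD103 high against CD103 negative cells, with a median log2 fold change of -0.84. Fscn1, the actin bundler of mature cells, was at -1.77 (SE 0.14), Tmem123 at -1.37 (SE 0.13) and the lymph node homing receptor Ccr7 at -1.34 (SE 0.21). The gene that rose was Il15ra, at 0.59 (SE 0.17). It held 25.5 and 20.2 CPM in CpG CD103 high replicates 1 and 2. CD103 negative replicates 1 to 3 held 15.8, 14.4 and 33.8 CPM of Il15ra. Il15ra was also higher at the later date within CD103 negative cells, at 1.16 (SE 0.20). The tested genes not called were Cd83 (-0.47), Cd80 (-0.45), Relb (-0.24), Cd40 (-0.06) and Cd86 (0.02). The summed level of the whole list was 1661 and 1504 CPM in CpG CD103 high replicates 1 and 2 and 2202 to 2965 CPM in the untreated libraries.

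Marker transcripts of the sorted lineage and of other cell types differed as well, and no listed marker was at 0 in all 7 libraries. Of the 8 CD8 lineage markers 5 were called higher and 0 lower in CpG CD103 high against CD103 negative cells (median log2 fold change 0.55), with sums of 15642 and 15760 CPM against 11147 to 12739 CPM in the untreated libraries. Macrophage markers summed to 223 and 237 CPM in CpG CD103 high cells and to 319 to 412 CPM in the untreated libraries, with Cd68 and Vcam1 called lower (-0.38, SE 0.08, and -2.21, SE 0.22). The other 3 of the 5 tested, C1qc (2.14, SE 1.12), Cd5l (1.88, SE 1.51) and Adgre1 (0.47, SE 0.45), were not called, and the median log2 fold change of the list was 0.47, opposite in sign to the change of its sum. Monocyte and neutrophil markers summed to 95 and 154 CPM against 138 to 272 CPM, with 2 of 4 tested called higher, Ly6c2 (1.96, SE 0.28) and S100a9 (2.98, SE 0.64), and 1 lower, Lyz2 (-1.07, SE 0.20). Ly6c2 was also higher at the later date within CD103 negative cells (2.24, SE 0.31, adjusted p 0.00759). B cell markers summed to 11.8 and 13.2 CPM against 68.5 to 94 CPM, and cDC2 markers to 10.5 and 19.5 CPM against 20.3 to 67.3 CPM. Erythroid and platelet markers summed to 28 and 32.5 CPM against 3.29 to 19.1 CPM, and plasmacytoid dendritic cell markers to 201 and 227 CPM against 160 to 233 CPM. Of the plasmacytoid list, Pacsin1 was called higher (2.27, SE 0.18) and Tcf4 lower (-1.31, SE 0.20). Siglech (90 counts), Klk1, Ly6d, Cox6a2 and Tcf4 were highest in CD103 negative replicate 3, while Bst2, Ccr9 and Pacsin1 were not. T cell markers summed to 0.666 and 0.896 CPM in CpG CD103 high cells and to 0.862 to 2.34 CPM in CD103 negative cells, and NK cell markers to 102 and 118 CPM against 84.9 to 110 CPM. The part of the transcripts of these cell types in the lower Ccl3, Ccl5, Ccl6 and Ccl22 was not tested.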

How the data were processed

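The deposited files, 1 per sample, hold raw read counts per gene with no normalization, and a gene length in bases, per the file headers. CASAVA, Subread 1.4.6, featureCounts and build mm10 are named, without roles, per the submitters' processing notes. The annotation, the strand setting and the handling of reads that map to several places are not given in any source used, so reads of overlapping genes cannot be told apart. A series table whose 7 column names match no label was not used. Symbols and coordinates came from the RefSeq table of GRCm38.p6, the same build, which matched 25275 of 27179 identifiers (93.0%), and strands and exons came from GENCODE M21.

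Counts were fitted with edgeR 4.0.16 in R 4.3.3: filterByExpr by group (10863 genes), TMM scaling, and a quasi-likelihood model with group and date as terms over all 7 libraries (3 residual degrees of freedom). The date term ties CpG CD103 high to CD103 negative replicates 1 and 2, and CD103 low to replicate 3. The SE is the log2 fold change divided by the square root of F. CPM uses TMM-scaled library sizes, with the SD over libraries. Values per kilobase use the deposited length. The fitting script was tested on simulated data. Alternatives used RLE scaling, DESeq2 1.42.0, limma 3.58.1 voom, other filters, no date term, a replicate block, single dates and each library left out.

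All 10 genes are named; of each other list, the 2 called genes of lowest adjusted p in CpG CD103 high against CD103 negative, or the most abundant gene where none was called; 1 gene this rule names is not reported here. Irf7, Nfkb2, Nfkbia, Jun, Ccr7, Ncr1, S100a9, C1qc, Cd5l and Adgre1 were named after their values were seen. Members and lists were chosen with earlier results of these data known. The intervals that counts allow cover counting error only.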

Additional observations from a re-analysis of the deposited data

How the results depend on the processing

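Of 352 log2 fold changes of single chemokine genes recomputed under 16 other settings, 312 kept their direction and their side of the threshold, 13 lost the call, 14 gained it and 13 changed sign, none of the last called. In CpG CD103 high against CD103 negative, 4 genes were called, and 3 to 6 with a library left out. In CD103 low against CD103 negative, 1 gene was called, 0 without the filter on low counts and 0 to 1 with a library left out (0 without CD103 low replicate 1 or 2 or CD103 negative replicate 1 or 2). In CpG CD103 high against CD103 low, 3 genes were called, and 2 to 5 with a library left out (5 without CD103 negative replicate 2 or 3).

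The labels number the replicates, but the deviations of same-numbered libraries from their group means correlated between -0.08 and 0.21, so the numbers were not taken to pair the samples. A replicate block cannot be fitted beside the date. With the replicate block in place of the date, 5 genes were called in CpG CD103 high against CD103 negative (Ccl4 added, -2.09), 2 in CD103 low against CD103 negative (Cxcl16 added, 0.42) and 5 in CpG CD103 high against CD103 low (Cxcl9, 0.65, and Cxcl16, -0.73, added).

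The sign changed for Cxcl10 in CpG CD103 high against CD103 negative (0.00 with no date in the model, and -0.35 to 0.06 with a library left out). In CD103 low against CD103 negative it changed for Ccl3 and Ccl4 without the date term (-1.34 and -1.15), with the replicate block (-1.54 and -1.32) and without CD103 negative replicate 3 (-1.83 and -1.61), with ranges of -1.83 to 0.98 and -1.61 to 0.68 over the libraries left out. There it also changed for Ccl22 with the replicate block (-0.03) and with a library left out for Ccl22 (-0.06 to 0.25), Ccl6 (-0.03 to 0.35) and Cxcl9 (-0.32 to 0.04). The cause was not tested.

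Over all genes, calls in CpG CD103 high against CD103 negative numbered 2860, 1589 without the date term and 1459 with DESeq2, and 1696 to 2860 with a library left out (1696, 1828 and 1904 without CD103 negative replicate 1, CD103 negative replicate 2 and CpG CD103 high replicate 2). In CD103 low against CD103 negative they numbered 15, 40 with DESeq2, 1 without the filter, 290 with the libraries dated 2013 alone, 1175 with the replicate block, and 1 to 1030 with a library left out (4 and 1 without CD103 low replicates 1 and 2, 31 and 24 without CpG CD103 high replicates 1 and 2, 1030 without CD103 negative replicate 3). In CpG CD103 high against CD103 low they numbered 676, 382 with DESeq2, 263 without the filter, 1775 with the replicate block, and 111 to 1667 with a library left out (111 and 165 without CD103 low replicates 1 and 2, 243 and 1667 without CD103 negative replicates 1 and 3). Leaving out CD103 negative replicate 3 also drops the date term.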

Other observations

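Among 7230 genes outside the list whose average log2 CPM reached 4, the closest patterns over the 7 libraries were found by Pearson correlation of log2 CPM, as a description only. For Ccl5 they were Eif4b (r = 0.996), a translation initiation factor gene, and Ms4a6c (0.994). For Ccl6 they were the tetraspanin gene Cd81 (0.994) and Adgrl3 (0.994), and for Ccl22 the Hsp70 gene Hspa1b (0.988) and Lad1 (0.986). For Ccl3 they were the Hsp40 co-chaperone gene Dnajb1 (0.978) and the mitochondrial gene COX2 (0.968), and for Ccl4 Pid1 (0.972) and Rasa2 (0.970). Cxcl9 was closest to Arhgap15 (0.991) and Itpkb (0.985), Cxcl10 to Tgif1 (0.965) and Mpc2 (0.962), and Cxcl16 to Phlpp1 (0.991) and Gnai2 (0.983). Hspa1b and Dnajb1 are also on the heat-shock list of the report. The points share libraries, scaling and the split into groups, so that high values are common among genes that separate the same groups.

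Ccr1, the receptor of Ccl6 and Ccl9, held 26 counts in CD103 negative replicate 3 and 1 count or none in the other 6 libraries. Ccrl2, an atypical receptor, held 54.9, 15.3 and 11.5 CPM in CD103 negative replicates 1 to 3, 10.4 and 24.4 CPM in CD103 low replicates 1 and 2, and 33.7 and 15.5 CPM in the pair of CpG CD103 high libraries, with its highest value, like those of Ccl3 and Ccl4, in CD103 negative replicate 1.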
